A study of Homo sapiens with 8 samples.

Results

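The genes described are antisense long non-coding RNA genes, chosen as every gene of the m6A peak lists whose name ends in -AS and a digit, other than OIP5-AS1 and FGD5-AS1. There were 243 of them among the 10577 genes with a peak in either list, with 258 of the 13219 peaks of the DF2 siRNA list and 360 of the 15730 peaks of the control list. Each was set beside its sense partner, the gene named before the -AS. The study mapped N6-methyladenosine (m6A) in cytoplasmic RNA of U2OS cells, a human osteosarcoma line. Cells in which the m6A reader YTHDF2 (DF2) was knocked down with siRNA gave 2 input and 2 m6A immunoprecipitated (m6A-IP) libraries. Control cells without the knockdown gave the same numbers, 8 libraries in all. The labels number the knockdown libraries DF2 siRNA #1 and #2, and do not say whether these are different siRNAs or repeats of 1 siRNA. The RNA was broken to pieces averaging about 100 nt, and those bound by an anti-m6A antibody were sequenced. The authors deposited 1 peak list per condition, which the labels assign to the pair of m6A-IP libraries made under it. There was therefore no replicate value behind any peak, no test was possible, and the 95% exact (Clopper-Pearson) intervals given below cover counting error over genes or peaks only. Read depth is unknown from these lists.

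m6A is laid down on nascent RNA by the METTL3-METTL14 methyltransferase complex and is found most often near stop codons and in long exons of mRNA. YTHDF2 binds methylated RNA in the cytoplasm and recruits the machinery that shortens the poly(A) tail and degrades the transcript. Natural antisense transcripts are made from the strand opposite to another gene, and many of them start from the same CpG-rich promoter as that gene and run away from it. Some antisense transcripts act on their sense partner in cis, and many have no known function.

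Facts of the whole series were as follows. YTHDF2 itself had a peak in both lists, at fold enrichment 52.3 and score 185 under DF2 siRNA and 124 and 4226 in the control list. A peak's fold enrichment sets m6A-IP against input and does not give the level of the RNA, so these values do not check the knockdown. Of 9 bone and matrix genes, the same number, 4, had a peak in each list (RUNX2, COL1A1, COL5A1 and TNC), while SP7, ALPL, BGLAP, SPARC and COL1A2 had none. Of the markers of other cell types, PECAM1 had 0 peaks in the DF2 siRNA list, against 5 in the control list, and PTPRC, CD3E, ALB, EPCAM, CDH1, GFAP and MYH6 had none in either. A gene without a peak may be unmethylated or too lowly expressed to be called, and these cannot be told apart here. The lists differ in length, with 8556 genes under DF2 siRNA and 9971 in the control list. The part this plays in any difference between the lists was tried only by cutting the control list to the number of DF2 siRNA peaks.

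A short stretch of DNA between the starts of sense and antisense gene is what the largest class of non-overlapping pairs had in common, so it is shown for 6 of them. Of the 239 pairs whose partner is a RefSeq gene, 67 had starts that point away from each other without overlap, at most 5000 bp apart. The median distance between their starts was 145 bases (quartiles 90 and 201), and 58 of the 67 had at most 250 bases between them. The sequences are the 3 pairs in which both genes had peaks in both lists, and the 3 in which the partner did not, with the highest fold enrichment on the antisense gene in the DF2 siRNA list. They were restricted to distances that the promoter table covers, and chosen with those values known. They come from RefSeq (GRCh38.p14), run 5′ to 3′ along the strand of the antisense gene from the base after the partner's start to the base before the antisense gene's start, and capitals mark GC boxes (GGGCGG or its complement CCGCCC), a motif bound by SP1-family factors. The pairs with peaks on both genes in both lists were ZNF213-AS1 (chr16:3134883-3135028, minus strand), PSMG3-AS1 (chr7:1570033-1570072, plus strand) and PRKAR2A-AS1 (chr3:48847875-48847936, plus strand).
ZNF213-AS1: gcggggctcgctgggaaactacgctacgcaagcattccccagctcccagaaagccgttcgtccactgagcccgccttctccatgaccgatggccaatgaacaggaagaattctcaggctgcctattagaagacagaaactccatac
PSMG3-AS1: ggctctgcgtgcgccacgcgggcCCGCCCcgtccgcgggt
PRKAR2A-AS1: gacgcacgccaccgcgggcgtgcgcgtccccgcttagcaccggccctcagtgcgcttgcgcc
The pairs whose partner had no peak in at least 1 list were NCBP2-AS2 (chr3:196942529-196942673, plus strand), GMDS-AS1 (chr6:2245606-2245752, plus strand) and BOLA3-AS1 (chr2:74147913-74147980, plus strand).
NCBP2-AS2: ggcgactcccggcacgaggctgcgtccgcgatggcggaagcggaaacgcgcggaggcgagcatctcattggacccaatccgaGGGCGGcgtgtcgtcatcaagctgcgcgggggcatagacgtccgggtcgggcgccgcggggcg
GMDS-AS1: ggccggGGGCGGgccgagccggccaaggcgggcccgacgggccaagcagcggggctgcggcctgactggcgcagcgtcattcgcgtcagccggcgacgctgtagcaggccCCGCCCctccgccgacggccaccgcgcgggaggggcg
BOLA3-AS1: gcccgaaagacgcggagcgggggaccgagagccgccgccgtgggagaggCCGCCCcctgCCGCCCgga

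The stretches were 40 to 147 bases long. Their G+C content was 55.5% for ZNF213-AS1 and 72.4% to 85.0% for the other pairs, beside medians of 59.6% to 61.3% over the windows of the same lengths before the start of all 35116 promoters in the table. A GC box was present once in the NCBP2-AS2 and PSMG3-AS1 stretches, at 2 places in the GMDS-AS1 and BOLA3-AS1 stretches, and not in those of ZNF213-AS1 and PRKAR2A-AS1. On either strand, such a box stood in 36.4% to 36.5% of all promoter windows of 145 to 147 bases, in 23.7% of those of 62 bases, in 25.3% of those of 68 bases and in 14.3% of those of 40 bases. Matches are letters only and say nothing of whether a factor binds there. The NCBP2-AS2 peak began 51 bases before the RefSeq start and thus inside the printed stretch, whereas the best GMDS-AS1 peaks began 26346 bases after the start in the DF2 siRNA list, against 26146 bases after it in the control list.

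The share of antisense genes with peaks in both lists was below that of genes at large, and those missing from a list were almost all missing from the DF2 siRNA list. Of the 243 genes, 166 had a peak in both lists (68.3%, interval 62.1% to 74.1%), where the share over all 10577 genes was 75.2%. Only 3 had a peak in the DF2 siRNA list alone (1.23%, interval 0.255% to 3.57%), beside 5.73% of all genes, and 74 in the control list alone (30.5%, interval 24.7% to 36.7%), beside 19.1% of all genes. Of the other 1498 genes that had only non-coding peaks, 763 (50.9%) were in both lists, 90 (6.01%) in the DF2 siRNA list alone and 645 (43.1%) in the control list alone. Both lists begin at a −log10 value of 1.3, which is of the FDR in the DF2 siRNA list but of the p-value in the control list. The part that this difference plays in these counts was not tested. When the control list was cut by fold enrichment to 13219 peaks, the full length of the DF2 siRNA list, 11 antisense genes were in the DF2 siRNA list alone. In the control list alone there were then 39. The same shares over all genes were not counted after this cut, so these counts cannot be set against genes at large.

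Peak by peak the lists overlapped in the same way. Of the DF2 siRNA antisense peaks, 237 of 258 shared at least 1 exonic base on the same strand with a control peak (91.9%, interval 87.8% to 94.9%), beside 87.5% of all DF2 siRNA peaks. Of the control antisense peaks, 220 of 360 shared one with a DF2 siRNA peak (61.1%, interval 55.9% to 66.2%), beside 71.9% of all control peaks. For the other peaks labelled ncRNA alone, whatever other peaks their gene had, the shares were 87.8% and 51.1%, in the same order of lists. In 62 of the antisense genes a peak had the very same interval in both lists, 67 such peaks in all.

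For antisense genes of the control list, the share also found in the DF2 siRNA list was higher in the bands of higher fold enrichment, while in the other direction it was high in every band. In the DF2 siRNA list the share also found in the control list was 49 of 51 (96.1%) below a fold enrichment of 10, 61 of 62 (98.4%) from 10 to 20, 40 of 40 from 20 to 40 and 16 of 16 from 40 upwards. In the control list the share also found in the DF2 siRNA list was 9 of 48 (18.8%) below 10, 40 of 70 (57.1%) from 10 to 20, 47 of 50 (94.0%) from 20 to 40 and 70 of 72 (97.2%) from 40 upwards. Over all genes of the control list these shares were 27.0%, 65.5%, 91.1% and 98.9%, each within the interval for antisense genes in its band. Below a fold enrichment of 10 in the DF2 siRNA list the antisense share, 96.1% (interval 86.5% to 99.5%), lay above the 77.5% of all genes and the 80.6% of other non-coding genes.

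**Figure D1:**
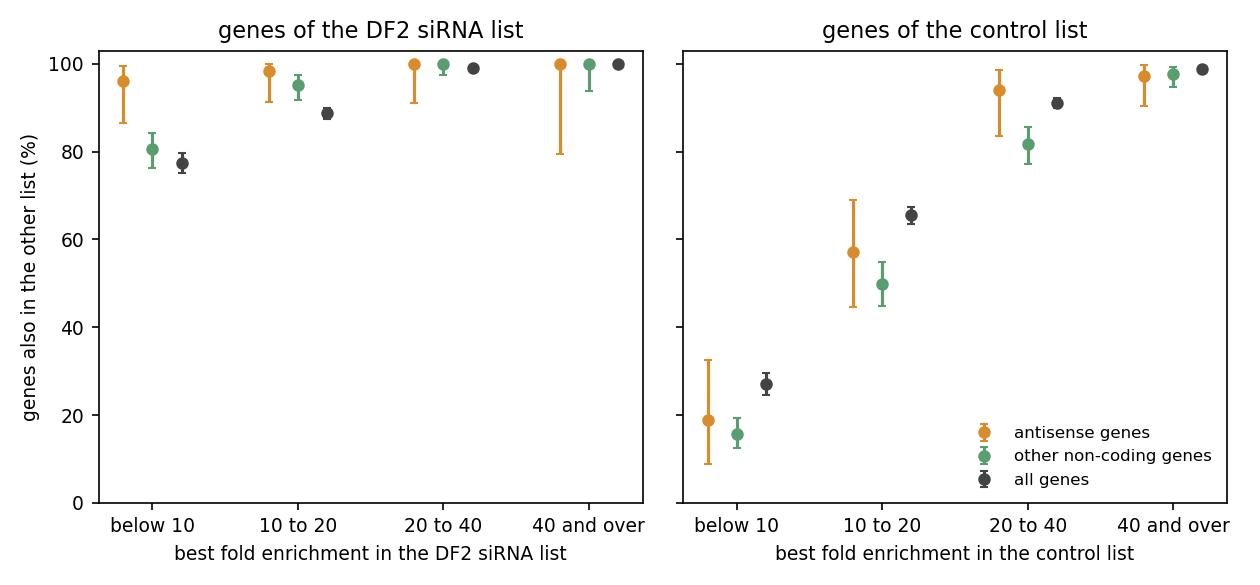
Share of genes of one list that also have a peak in the other (vertical axis, %) by the fold enrichment of their best peak (horizontal axis, 4 bands), in the DF2 siRNA list (left) and the control list (right), for antisense, other non-coding and all genes; bars are 95% exact intervals. In the control list the antisense share runs between 18.8% in the lowest band and 97.2% in the highest, while in the DF2 siRNA list it is 96.1% or more in every band.

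Within its list, an antisense gene's best peak exceeded the list's median in a share between those of genes at large and of other non-coding genes. By the best peak per gene, 69 of 169 antisense genes lay above the median fold enrichment of all peaks in the DF2 siRNA list (40.8%, interval 33.3% to 48.6%) and 121 of 240 in the control list (50.4%, interval 43.9% to 56.9%). The same shares were 60.3% and 61.5% over all genes, and 26.8% and 37.8% over other non-coding genes. Taking every peak, the median fold enrichment of antisense peaks was 11.1 in the DF2 siRNA list, where all peaks had 17.7, and 15.1 in the control list, where all peaks had 20.8. The deposited score, which the lists do not define, had a median of 16 for antisense peaks and 74 for all peaks under DF2 siRNA and 35 for antisense peaks and 143 for all peaks in the control list.

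The antisense peaks were nearly uniform in label and varied in width. Their median exonic width was 600 nt in both lists, as for all peaks, with quartiles of 400 and 836 nt under DF2 siRNA and of 400 and 1000 nt in the control list. Of the antisense peaks, 251 of 258 (97.3%) under DF2 siRNA and 352 of 360 (97.8%) in the control list carried the label ncRNA alone. Peaks of a single exonic block made up 7.36% of antisense peaks in the DF2 siRNA list, against 7.78% in the control list, where all peaks gave 8.01% and 7.86%. Most antisense genes had 1 peak, 111 genes in the DF2 siRNA list, against 155 in the control list, while 5 had 4 or more in each list. Peaks covered the first base of the RefSeq gene in 45 of 258 cases (17.4%) under DF2 siRNA and 64 of 359 (17.8%) in the control list, and the last base in 36 and 62 cases.

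The genes behind these labels were mostly but not all long non-coding RNAs. In RefSeq, 242 of the 243 were found, 50 of them under a newer name, and 33 of these are now called divergent transcripts (-DT). By RefSeq class 230 were lncRNA genes, 5 transcribed pseudogenes, 1 an antisense RNA and 6 protein-coding. By RefSeq's present records the protein-coding ones were FAM83H-AS1, MMP24-AS1, NCBP2-AS2, SPTY2D1-AS1, TNRC6C-AS1 and TOPORS-AS1, so the antisense name alone does not make a gene non-coding.

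The partner carried a peak in about the same share of pairs in both lists, and that share was above the level of protein-coding genes at large. The name before -AS was a RefSeq gene for 239 of the antisense genes, 237 of them with a protein-coding partner, and it was no gene for HOXC-AS2, HOXC-AS3, KRTAP5-AS1 and RPARP-AS1. There were 236 distinct partners, since DLGAP1, PAXIP1 and PTOV1 each serve a pair of antisense genes. Among antisense genes with a peak, the partner had one for 109 of 165 in the DF2 siRNA list (66.1%, interval 58.3% to 73.2%), beside 36.1% of all 20052 RefSeq protein-coding genes. In the control list it had one for 164 of 236 (69.5%, interval 63.2% to 75.3%), beside 39.7% of protein-coding genes. The background holds genes that U2OS cells may not express, whereas a pair enters only where its antisense gene was called, and the part this plays was not tested.

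**Figure D2:**
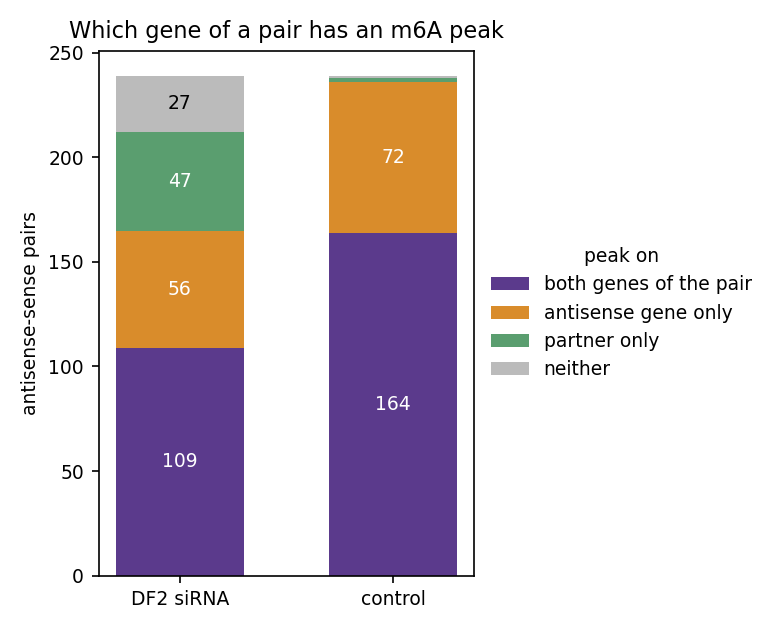
Number of the 239 antisense-sense pairs (vertical axis) by which gene of the pair has an m6A peak, in the DF2 siRNA list (left bar) and the control list (right bar). Both genes have a peak in 109 pairs of the DF2 siRNA bar and 164 of the control bar; the bands for the partner alone (2 pairs) and for neither gene (1 pair) are barely visible in the control bar.

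In the DF2 siRNA list both genes of a pair had a peak in 109 pairs, the antisense gene alone in 56, the partner alone in 47 and neither in 27. In the control list the counts were 164, 72, 2 and 1. Since a pair is listed only if its antisense gene has a peak somewhere, and nearly all such genes have one in the control list, the low last counts of the control list follow from the choice of pairs. The partner had a peak in both lists for 99 of the 162 pairs whose antisense gene was in both lists (61.1%) and for 45 of the 74 whose antisense gene was in the control list alone (60.8%).

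Pairs in which the genes behaved differently between the lists went in both directions. In 15 pairs the antisense gene had a peak in both lists and the partner in the control list alone, and in 8 the partner had one in the DF2 siRNA list alone. Examples of the first kind are TMPO-AS1, with fold enrichment 28.5 in the DF2 siRNA list, against 56.5 in the control list, beside a control peak of 52.9 on TMPO, which encodes the nuclear lamina protein thymopoietin, and KTN1-AS1 with 11.2 and 68.4, beside a control peak of 25.4 on KTN1, the kinectin gene. The second kind comprised ARRDC1-AS1, ASMTL-AS1, DDX11-AS1, H1FX-AS1, NOP14-AS1, PARD6G-AS1, RAB11B-AS1 and TP73-AS1. Partner peaks of this kind had fold enrichments between 5.21 on ARRDC1 and 33.6 on TP73, a gene of the p53 family. For IGFBP7-AS1 and UXT-AS1 the antisense gene had a peak in the control list alone (3.58 and 7.17). Their partners had one in the DF2 siRNA list alone (11.9 and 11.4). The antisense calls were weak: 3.58 is the lowest fold enrichment of the control list, and the scores were 3 and 7. In 5 pairs, those of IDH1, ITGB2, SUCLG2, TAF1A and UGDH, both genes had control peaks and neither had a DF2 siRNA peak, with control fold enrichments of at most 12.5 on either gene. These pairs were chosen after their values were seen.

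Where both genes had a peak, the partner's was usually the stronger. The antisense gene had the higher fold enrichment in 28 of 109 pairs in the DF2 siRNA list (25.7%, interval 17.8% to 34.9%) and in 62 of 164 in the control list (37.8%, interval 30.4% to 45.7%). The medians were 16.4 on the antisense gene and 26.6 on the partner under DF2 siRNA and 23.8 and 38.3 in the control list. By the deposited score the gap was wider, with the antisense gene ahead in 16 of 109 and 33 of 164 pairs and medians of 26 and 140 under DF2 siRNA and 58 and 474 in the control list. The antisense gene's best peak was the wider one in 49 of 109 and 62 of 164 pairs. Among all partners with a peak, the best peak was labelled as covering the stop codon for 88 of 156 in the DF2 siRNA list (56.4%, beside 60.0% of all genes with labelled mRNA peaks) and for 102 of 166 in the control list (61.4%, beside 62.1%).

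**Figure D3:**
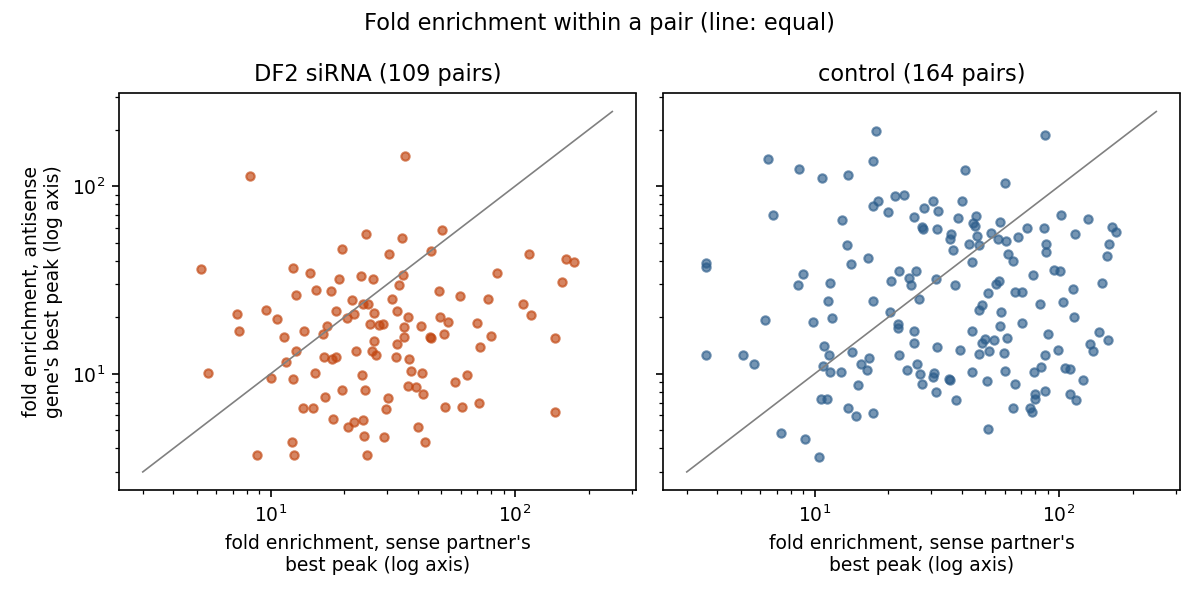
Fold enrichment of the best peak of the antisense gene (vertical log axis) against that of its sense partner (horizontal log axis), one point per pair with a peak on both genes, in the DF2 siRNA list (left, 109 pairs) and the control list (right, 164 pairs); the line marks equal values. More points lie below the line than above it, with 28 pairs above it in the left panel and 62 in the right.

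The 10 antisense genes with the highest fold enrichment in either list, among those with peaks in both, are given by whether the partner had a peak. The first 3 had a partner without a peak in either list. VIM-AS1, antisense to the gene of the intermediate filament protein vimentin, had 1 peak at the same interval in both lists (chr10:17214831-17229785, minus strand, 1200 exonic nt), with fold enrichment 17.0 and score 26 in the DF2 siRNA list, against 202 and 358 in the control list. NNT-AS1, whose partner encodes a mitochondrial transhydrogenase that makes NADPH, had its best peak at chr5:43574974-43577679 on the minus strand, with 31.1 under DF2 siRNA and 146 in the control list. GMDS-AS1, whose partner makes an enzyme of GDP-fucose synthesis, had 53.1 in the DF2 siRNA list, against 145 in the control list. VIM, NNT and GMDS themselves had 0 peaks, so in these pairs peaks were listed under the antisense gene alone. Whether the reads came from that strand alone is not known, since the strand setting of peak calling was not given.

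ENTPD1-AS1 and NCBP2-AS2 had partners with a control peak only. ENTPD1-AS1, antisense to the gene of the ectonucleotidase CD39, had 94.5 under DF2 siRNA and 140 in the control list, and ENTPD1 a control peak of 6.44. NCBP2-AS2, beside the gene of the small subunit of the nuclear cap-binding complex, had 79.7 (score 799) in the DF2 siRNA list, against 137 (score 3017) in the control list at the same interval (chr3:196942623-196943540), and NCBP2 a control peak of 17.3. Its scores were the highest of any antisense peak in both lists, and RefSeq counts it as protein-coding.

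The partners of the other 5 had peaks in both lists. COX10-AS1, which runs away from a gene for heme A synthesis, had 23.6 under DF2 siRNA and 198 in the control list, while COX10 had 25.1 and 17.8. ASH1L-AS1, opposite the start of a histone methyltransferase gene, had 58.5 in the DF2 siRNA list, against 187 in the control list, while ASH1L had 50.3 and 87.9. By score, ASH1L-AS1 had 148 and ASH1L 347 under DF2 siRNA, and in the control list they had 1097 and 1560. These genes were chosen for a high fold enrichment on the antisense gene, so its place above the partner by that measure is no finding.

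WAC-AS1 had 144 under DF2 siRNA and 104 in the control list, while WAC, the gene of an adaptor protein involved in histone H2B ubiquitination, had 35.4 and 60.3. CIRBP-AS1 had 113 in the DF2 siRNA list, against 124 in the control list, while CIRBP, the cold-inducible RNA-binding protein gene, had 8.22 and 8.66. Both CIRBP peaks lie outside the RefSeq gene of that name. ELFN1-AS1 had 52.6 under DF2 siRNA and 122 in the control list, while ELFN1, encoding a synaptic membrane protein, had 34.6 and 41.2. The fold values belong to 2 lists made separately, with no replicate and no scaling between them given in the sources used here, and no change in methylation was read from their difference.

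**Figure D4:**
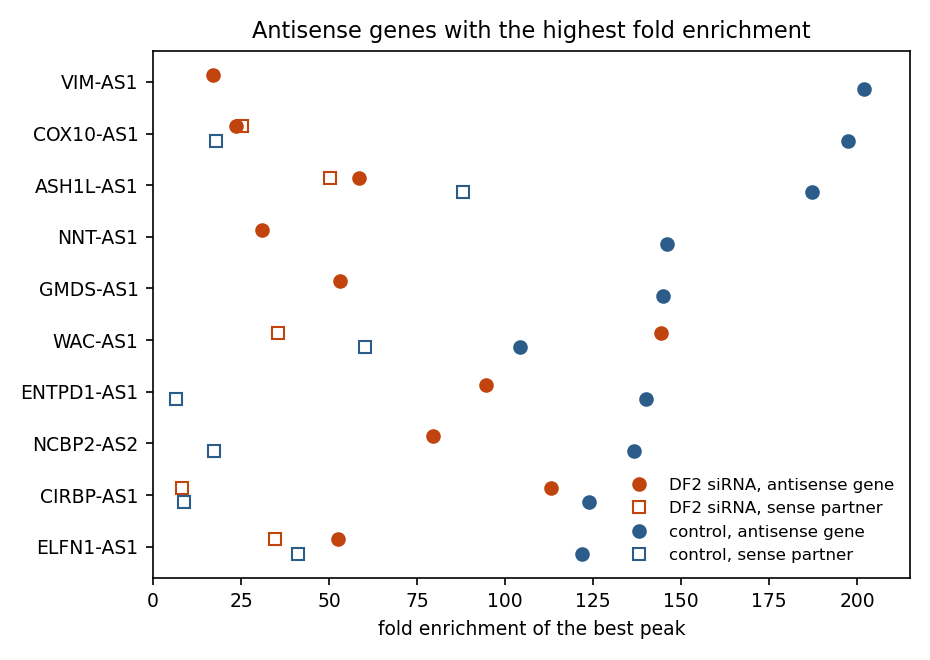
Fold enrichment of the best peak (horizontal axis, starting at 0) for the 10 antisense genes with the highest values among those with peaks in both lists; filled circles are the antisense gene, open squares its sense partner, and in each row the DF2 siRNA values stand above the control values. VIM-AS1, NNT-AS1 and GMDS-AS1 have no squares because their partners have no peak, and CIRBP-AS1 stands at 113 (DF2 siRNA) and 124 (control) beside squares at 8.22 and 8.66. The CIRBP squares are from peaks that lie outside the RefSeq gene of that name.

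Beyond these, partners without a peak in either list belonged to 40 of the 162 pairs whose antisense gene was in both lists, and the next by fold enrichment were as follows. AGAP2-AS1, within a gene for a GTPase-activating protein, had 85.1 (score 610) in the DF2 siRNA list, against 95.2 (score 1356) in the control list. OTUD6B-AS1 had 19.7 under DF2 siRNA and 86.7 in the control list. TTN-AS1, opposite the gene of the muscle protein titin, had 3 peaks with a best value of 31.6 in the DF2 siRNA list, against 5 peaks with a best value of 81.0 in the control list. MAFG-AS1 had 53.6 and 68.8, in the same order of lists, at peaks that lie outside the RefSeq gene of that name. Among the pairs whose antisense gene was in the control list alone and whose partner had no peak, OR2A1-AS1, with an olfactory receptor partner, had the highest value (53.1).

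Few antisense genes found in a single list had a high value. The 3 in the DF2 siRNA list alone were LLPH-AS1 (12.6), NFYC-AS1 (7.81) and ST7-AS1 (6.49), and LLPH and ST7 had peaks in both lists while NFYC, a subunit gene of the CCAAT-binding factor, had none. The 8 with the highest values in the control list alone were CYP1B1-AS1 (57.1), OR2A1-AS1 (53.1), ID2-AS1 (23.3), CRYM-AS1 (23.2), CCNT2-AS1 (20.1), SCAMP1-AS1 (19.96), LIMD1-AS1 (18.6) and PPP1R26-AS1 (17.9). Of their partners, CYP1B1, ID2, CCNT2, LIMD1 and PPP1R26 had peaks in both lists and OR2A1, CRYM and SCAMP1 in neither. CYP1B1, a cytochrome P450 gene, had fold enrichment 123 in the DF2 siRNA list, against 172 in the control list. The peak of 57.1 called on CYP1B1-AS1 lay outside the RefSeq gene of that name. It shared 239 bases with a CYP1B1 peak of score 1875 in the control list, where its own score was 85. Reads of the sense and the antisense gene cannot be told apart there, so no contrast between them was read from this pair.

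The genes with most peaks had several calls under 1 gene name. Whether these lie on the same transcript was not tested, and some control peaks of CTBP1-AS2 lay beyond the end of its RefSeq gene. TTC28-AS1 had 8 peaks under DF2 siRNA and 7 in the control list, TP73-AS1 had 5 and 4, CTBP1-AS2 had 2 and 6, TTN-AS1 had 3 and 5, and RASSF8-AS1 had 3 and 4, as did UBA6-AS1 with 4 and 3. Their best fold enrichments ran between 7.55 on UBA6-AS1 and 55.9 on CTBP1-AS2 under DF2 siRNA and between 24.2 and 114 on the same genes in the control list.

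Of 42 antisense and related RNAs often studied in cancer or development, 12 had a peak in both lists, 1 (CRNDE, which is not among the 243) in the DF2 siRNA list alone, 2 (FOXP4-AS1 and TRIM52-AS1) in the control list alone and 27 in neither. Over all genes with a peak in either list, 75.2% had one in both, a share that the 27 do not enter. Of the 12, SLC16A1-AS1, beside a monocarboxylate transporter gene, had fold enrichment 16.4 in the DF2 siRNA list, against 49.0 in the control list. ZEB1-AS1, beside a gene that drives epithelial-mesenchymal transition, had 12.3 and 46.0, and its partner 16.6 and 36.7. THAP9-AS1 had 24.7 (score 422) and 52.5 (score 1970), and was ahead of THAP9 at 21.4 (score 43) and 35.9 (score 167). MCM3AP-AS1 had 20.02 and 83.1, SBF2-AS1 had 13.2 and 59.4, MNX1-AS1 had 18.9 and 29.6, and GAS6-AS1 had 33.4 and 50.9. The lowest were HOXC-AS2 with 6.09 and 12.5 and HOXC-AS3 with 3.71 and 17.9. In all these the DF2 siRNA value is the first. YTHDF3-AS1, which lies beside the gene of another m6A reader and was chosen after its values were seen, had 9.91 under DF2 siRNA and 16.3 in the control list, while YTHDF3 had 63.6 and 89.9.

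By position, overlap at the starts was the most frequent arrangement. Of the 243, 73 overlapped the partner at the starts, 67 were divergent without overlap, 44 overlapped at the ends, 26 lay within the partner, 5 held the partner within them and 4 were further apart. For 13 pairs the partner's strand was unknown, for 6 the peaks lay outside the RefSeq gene, and for 5 there was no position. Among antisense genes with a peak, the partner had one for 38 of 46 divergent pairs (82.6%) in the DF2 siRNA list, against 57 of 66 (86.4%) in the control list. The shares were 36 of 51 (70.6%) and 53 of 71 (74.6%) for pairs overlapping at the starts, 20 of 32 (62.5%) and 27 of 44 (61.4%) for those overlapping at the ends, and 11 of 17 (64.7%) and 19 of 26 (73.1%) for antisense genes within the partner. A partner without a peak leaves the strand of some pairs unknown and keeps them out of these classes, which raises the shares. Among these 4 classes the median fold enrichment of the best antisense peak was highest for overlap at the ends, at 18.3 in the DF2 siRNA list, against 32.3 in the control list, where the other classes had 15.0 to 16.4 and at most 21.8.

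The listed strands were as the names say. Each peak is listed under a gene, and whether its strand was measured or taken from that gene's record is not given. The strand counts therefore do not test which strand the signal came from. In all 176 pairs with peaks on both genes in the lists combined, the peaks of the antisense gene and of the partner were on opposite strands, with the antisense gene on the plus strand in 95 and on the minus strand in 81, and 0 pairs had both on the same strand. Counted by whole span with introns, antisense peaks often reached into the partner gene. They did so in 116 of 253 cases (45.8%) in the DF2 siRNA list, against 153 of 352 (43.5%) in the control list. By whole spans they seldom reached a partner peak, in 24 of 258 cases (9.3%) and 29 of 360 (8.06%). A partner peak on the other strand shared exonic bases with 17 of 258 antisense peaks in the DF2 siRNA list (6.59%, interval 3.88% to 10.3%) and with 22 of 360 in the control list (6.11%, interval 3.87% to 9.11%). An opposite-strand peak of any gene lay over 20 (7.75%, interval 4.80% to 11.7%) and 26 (7.22%, interval 4.77% to 10.4%) of them, beside 2.25% of all DF2 siRNA peaks and 3.13% of all control peaks. For the other peaks labelled ncRNA alone the shares were 6.29% and 6.48%.

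The overlaps involved 29 antisense genes, 10 of them in both lists, 7 in the DF2 siRNA list alone and 12 in the control list alone. They shared 51 to 600 bases in the DF2 siRNA list, against 22 to 621 in the control list, and the partner's peak was labelled as touching the 5′ UTR in 13 of 17 and 15 of 22 cases. Over all genes with labelled mRNA peaks, the best peak carried that label for 27.4% under DF2 siRNA and 26.6% in the control list, but those peaks were not chosen for lying over an antisense peak. The partner's peak had the higher score in 14 of 17 cases under DF2 siRNA and 13 of 22 in the control list, and the higher fold enrichment in 13 and in 10. No source used here says whether peak calling took account of the strand of the reads, so reads of the sense and the antisense gene cannot be told apart where their peaks overlap.

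**Figure D5:**
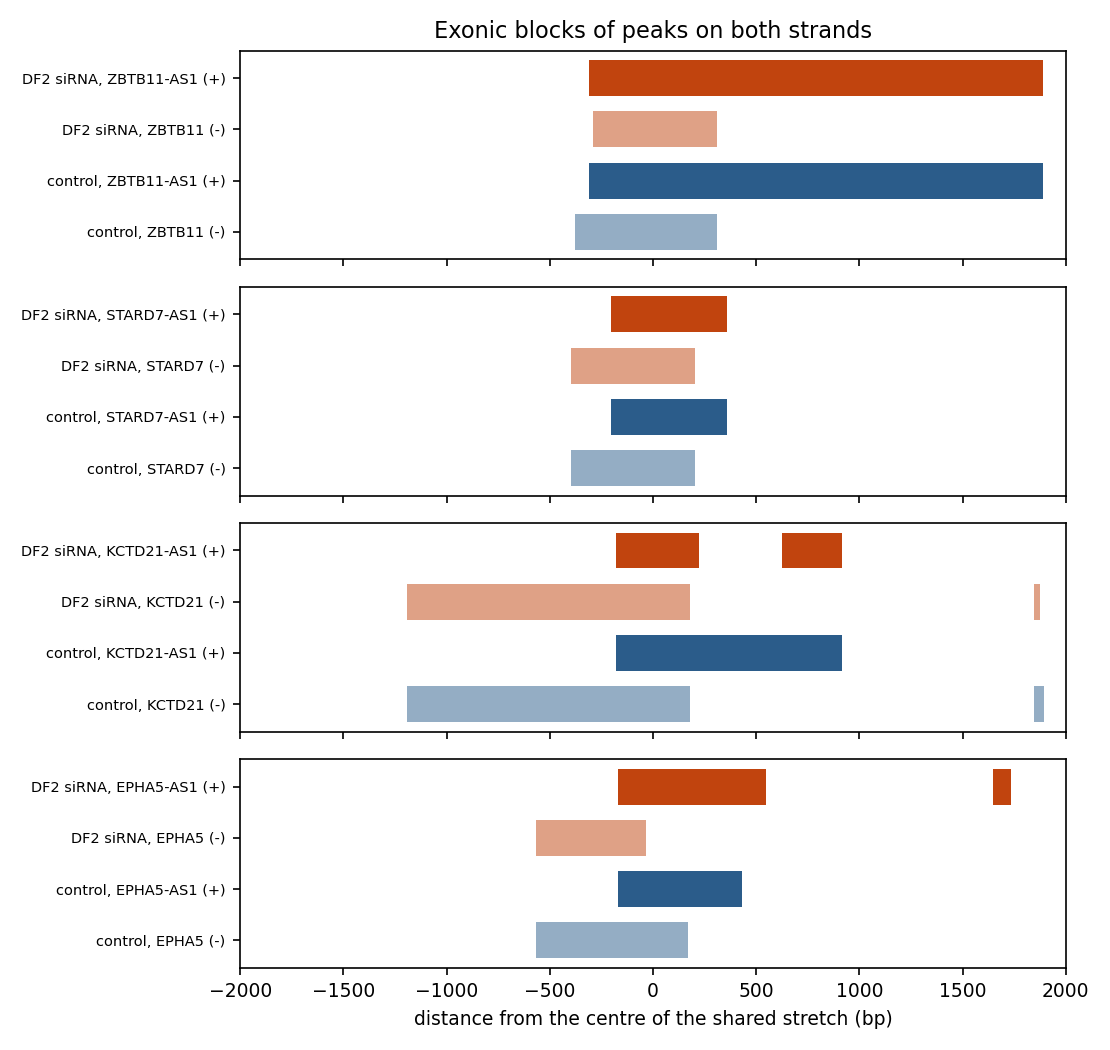
Exonic blocks of antisense peaks (solid) and partner peaks (pale) around the stretch they share, for the 4 pairs with the most shared bases in the control list among those whose antisense gene is in both lists and meets a partner peak there; in each panel the DF2 siRNA rows stand above the control rows, strands are in brackets, and the horizontal axis is distance in bp from the centre of the shared stretch, limited to 2000 bp on either side. The ZBTB11-AS1 and ZBTB11 peaks share 600 bases in the DF2 siRNA list, against 621 in the control list, where the left end of the antisense peak meets the right end of the partner peak.

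ZBTB11-AS1, opposite the start of a zinc finger transcription factor gene, had the longest shared stretch. Its peak (chr3:101676675-101678874, plus strand, 2200 nt) had fold enrichment 33.5 and score 70 under DF2 siRNA and 51.2 and 193 in the control list. The ZBTB11 peak it met had scores of 48 and 121, so the antisense peak had the higher score in both lists. STARD7-AS1 shared 410 bases with STARD7, a phosphatidylcholine transfer protein gene, in both lists. There the partner's peak had the higher score. The antisense peak stood at a score of 14 and the STARD7 peak at 441 under DF2 siRNA, and at 28 and 518 in the control list. In neither pair was a leading strand read from these scores, since reads of both genes cannot be told apart there. KCTD21-AS1 shared 355 bases with KCTD21, a cullin adaptor gene, in each list, with scores of 4 on the antisense peak and 169 on the partner peak in the DF2 siRNA list, against 39 and 577 in the control list. EPHA5-AS1 shared 135 bases with the ephrin receptor gene EPHA5 under DF2 siRNA and 335 in the control list. The other antisense genes over a partner peak in both lists were MZF1-AS1, ST20-AS1, TTC28-AS1, ADIRF-AS1, RAP2C-AS1 and TFAP2A-AS1.

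Other overlaps in the control list alone were BCDIN3D-AS1 with 458 shared bases, SMARCA5-AS1 with 391, FAM13A-AS1 with 266, CYP1B1-AS1 with 239 and TNRC6C-AS1 with 236. In the DF2 siRNA list alone CACTIN-AS1 shared 256 bases with its partner. An antisense peak lay wholly over the partner's peak once in each list: H1FX-AS1 with 200 of 200 nt in the DF2 siRNA list, at score 40 where the linker histone gene H1FX had 615, and ZNF337-AS1 with 400 of 400 nt in the control list, at score 5 where ZNF337 had 309. The ratio of the partner's score to the antisense score spanned 0.295 to 42.2 in the DF2 siRNA list (median 5.21) and 0.0045 to 61.8 in the control list (median 5.58). At the low end stood PITPNA-AS1, at score 667 over a peak of score 3 on PITPNA, a phosphatidylinositol transfer protein gene, in the control list. At the high end in the control list stood ZNF337-AS1, given above, followed by RARA-AS1, with score 42 over a peak of score 1863 on RARA, the retinoic acid receptor alpha gene. Leaving out every antisense peak over an opposite-strand peak kept the partner's share near its level, at 64.1% in the DF2 siRNA list, against 67.4% in the control list.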

How the data were processed

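Peaks came from 1 list per condition, made by the authors from 2 input and 2 m6A-IP libraries each of DF2 siRNA and control U2OS cells. Per the submitters' processing notes, the aligner was HISAT2 and the build hg38. Which caller, thresholds and strand setting made the peaks was not given in sources used here. The deposited lists hold for each peak its exonic blocks, a score, a fold ratio (fold enrichment) and a −log10 value, which per the file headers is of the FDR in the DF2 siRNA list but of the p-value in that of control cells; both lists begin at 1.3. A −log10 value was therefore compared within a list only, as were fold enrichment and score. Lists cut on fold enrichment or on the −log10 value were, however, compared with each other among the alternatives. The deposited block sizes of minus-strand peaks run against the genomic order of the block starts (as written, 2860 of 5928 such DF2 siRNA peaks and 3918 of 7046 control peaks end off the peak) and were turned round.

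From these lists, genes were counted by the authors' Ensembl identifiers and peaks compared by shared exonic bases (at least 1 base, same strand unless stated) with scipy 1.17.1, numpy 2.4.6 and pandas 2.3.3 under Python 3.11.15; the overlap code was tested on simulated data. Gene classes, positions and sequences are from RefSeq (GRCh38.p14). The best peak of a gene is that of the highest fold enrichment. Genes were named by rule: the 10 highest in both lists, the 8 highest in either list alone, up to 12 overlapping pairs by shared bases, the 5 with most peaks (a tie added 1), up to 8 highest whose partner has none, and a list of 42 studied RNAs; others named were chosen after their values were seen. Members and lists were chosen with earlier results of these data known. The result of 1 further cell type marker is not reported here. Alternatives were cuts on fold enrichment, −log10 value and list length, overlap rules, membership and distance limits.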

Additional observations from a re-analysis of the deposited data

How the results depend on the processing

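Of 59 alternative values, 19 moved by more than 1.5 times for a count or past the reported interval for a share, and 40 did not; the cause was not tested. Keeping only peaks at or above each list's median fold enrichment left 68 antisense genes in both lists, 53 in the control list alone and a partner share of 53.3% in the control list. Requiring a −log10 value 2 above each list's minimum gave 112 genes in both lists and 9 in the DF2 siRNA list alone. This cut was on the FDR in the DF2 siRNA list but on the p-value in the control list, which are unlike measures. It also gave partner shares of 57.5% (DF2 siRNA) and 56.8% (control), 55.7% of control antisense peaks overlapped by the other list and 3.8% over a partner peak. Lists of equal length gave 11 genes in the DF2 siRNA list alone and 39 in the control list alone, with overlap shares of 86.4% (DF2 siRNA) and 78.8% (control). An overlap of 50% of the peak gave 53.3% of control peaks shared between lists, and 0.775% (DF2 siRNA) and 1.67% (control) over a partner peak. Counting every peak put 29.5% (DF2 siRNA) and 38.9% (control) above the median fold enrichment, and peaks of at most 400 nt 30.7% and 31.1%. Leaving out antisense peaks over an opposite-strand peak, an alternative chosen after seeing the data, gave 7 genes in the DF2 siRNA list alone. The divergent class held 65 pairs at 1000 bp and 68 at 10000 bp, against 67.

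No paired analysis was possible because each condition has 1 peak list over both m6A-IP libraries, which also prevents leaving out a library. Library depth is unknown, so a missing peak cannot be told from a lack of reads, and the lists give no RNA level for either gene of a pair.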
